A study of Mus musculus with 17 samples.

Results

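The set described here was 10 genes, most of them best known from neurons, glia or cilia, of the 24233 genes listed for Western diet samples: Dnah1, Gldn, Igdcc4, Rasl10b, Syn2, Scn2a, Sorcs2, Shc2, Tbc1d31 and Dpysl3. They were chosen by their counts, which rose from WT liver through N-LKO liver to tumor under WD, so their WD values are given as a description and carry no test. Of these, 9 were also among the 19151 genes listed for the high-fat diet, where Syn2 was not analysed. The high-fat diet contrast did not enter the ranking, and the genes were tested there.

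RNA-seq had been performed on 17 liver and tumor samples from male C57BL6 mice. N-LKO mice carried loxP-flanked alleles of NgBR, encoded by Nus1, which were deleted by a Cre driven by the albumin promoter, a promoter of hepatocytes, so the other cells of the liver keep the gene. A high-fat diet (HFD) had been fed for 16 weeks to 4 WT and 4 N-LKO mice, whose livers were sequenced. A Western diet (WD), rich in fat and cholesterol, had been fed for as long in the other arm, which gave 3 WT livers, 3 N-LKO livers and 3 tumors of N-LKO mice. The libraries are labelled as biological replicates, and whether a tumor and a liver came from 1 mouse was not given. Total counts ran from 9096109 to 12215764 under HFD and from 15494718 to 20200578 under WD. Levels are given in CPM, counts per 1000000 counts of the TMM-scaled library size. Nus1 averaged 88.0 ± 5.89 CPM (SD, n = 4) in WT and 35.0 ± 3.98 in N-LKO liver under HFD, and 94.4 ± 5.58, 46.7 ± 4.74 and 35.7 ± 7.59 (n = 3 each) in WT liver, N-LKO liver and tumor under WD, lower in every N-LKO sample than in every WT liver of its diet. The summed level of 8 hepatocyte markers was between 33600 and 76500 CPM in all libraries, tumors included.

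A synapse is built from vesicles coated by synapsins, and an axon conducts through voltage-gated sodium channels that are clustered at nodes of Ranvier by proteins of the surrounding glia. An axoneme is the microtubule core of a motile cilium or flagellum, bent by dynein arms, while the primary cilium of most cells is assembled from a centriole with the help of the granules called centriolar satellites. Hepatocytes are not known for any of these structures, whereas the biliary epithelium carries primary cilia and the liver's vessels and ducts are followed by nerves.

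Among the 10 genes, Gldn encodes gliomedin, a matrix protein of Schwann cells that gathers sodium channels at nodes. Scn2a encodes the pore-forming subunit of the channel Nav1.2, and Syn2 encodes synapsin II of synaptic vesicles. Sorcs2 is a sorting receptor of the VPS10 family that binds proneurotrophins, and Shc2 is an adaptor that links receptor tyrosine kinases to Ras. Rasl10b is a small GTPase related to Ras. Dpysl3 encodes a collapsin response mediator protein of growth cones, and Igdcc4 a surface protein of the immunoglobulin superfamily, related to the netrin receptor DCC and known from fetal liver. Dnah1 is a heavy chain of the inner dynein arm, and Tbc1d31 encodes a protein of centriolar satellites.

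The genes lay apart on 9 chromosomes in the GENCODE M21 annotation of GRCm38: Dnah1 at chr14:31260375-31323896, Gldn at chr9:54286486-54341786, Igdcc4 at chr9:65101486-65137940, Rasl10b at chr11:83409137-83421039, Syn2 at chr6:115134902-115282006, Scn2a at chr2:65620771-65767447, Sorcs2 at chr5:36017180-36398139, Shc2 at chr10:79618051-79637918 and Tbc1d31 at chr15:57912199-57970067, with Dpysl3 on another. Dnah1, Sorcs2, Shc2 and Dpysl3 are on the minus strand and the others on the plus strand. Values are given per gene, so isoforms cannot be told apart.

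Promoter windows from RefSeq (GRCm38.p6), the 250 bases before the annotated start, were at hand for 5 of the 10 genes. Gldn and Shc2 were higher in N-LKO than in WT liver under both diets, and Dnah1 and Igdcc4 were high chiefly in tumors. The windows of these genes are shown 5′ to 3′ on the strand of the gene. Each match to an AP-1 site or a GC box is in capitals.
Gldn, chr9:54286236-54286485, plus strand: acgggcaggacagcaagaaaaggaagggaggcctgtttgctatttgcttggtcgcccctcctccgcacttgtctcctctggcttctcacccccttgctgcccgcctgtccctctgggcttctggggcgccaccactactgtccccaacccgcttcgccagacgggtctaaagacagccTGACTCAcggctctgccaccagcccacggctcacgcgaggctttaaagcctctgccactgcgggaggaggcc
Shc2, chr10:79637919-79638168, minus strand: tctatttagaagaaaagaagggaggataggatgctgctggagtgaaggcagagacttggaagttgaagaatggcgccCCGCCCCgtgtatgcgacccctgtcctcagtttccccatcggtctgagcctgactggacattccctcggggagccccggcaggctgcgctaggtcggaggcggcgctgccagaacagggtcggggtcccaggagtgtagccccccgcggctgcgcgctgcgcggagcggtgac
Igdcc4, chr9:65101236-65101485, plus strand: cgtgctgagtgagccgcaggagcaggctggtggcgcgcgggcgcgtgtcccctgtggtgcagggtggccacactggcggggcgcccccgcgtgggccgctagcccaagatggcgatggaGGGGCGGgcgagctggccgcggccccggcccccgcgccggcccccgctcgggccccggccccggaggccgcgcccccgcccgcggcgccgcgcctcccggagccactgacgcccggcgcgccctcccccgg
Dnah1, chr14:31323897-31324146, minus strand: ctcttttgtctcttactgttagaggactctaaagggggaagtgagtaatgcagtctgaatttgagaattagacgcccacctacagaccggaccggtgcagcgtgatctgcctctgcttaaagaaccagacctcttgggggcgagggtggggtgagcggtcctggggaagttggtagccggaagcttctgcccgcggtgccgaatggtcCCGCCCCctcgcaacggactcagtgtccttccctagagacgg
On both strands, 8 motifs were searched: the AP-1 site TGANTCA, the CRE TGACGTCA, the GC box GGGGCGG, the TATA box TATAAA, the CCAAT box, the X-box of ciliary genes, and the left part and the right part of the RE1 element of neural genes. Gldn held an AP-1 site at positions -72 to -66 from its start, a motif that 6.75% of 32851 windows of this length held. The GC box was in 4 of the 5 windows, Syn2, Igdcc4, Shc2 and Dnah1, against 21% of all windows, and the matches did not overlap another motif. The other 6 motifs had no match in the 5 windows, which says only that these letters were not in them. The windows held between 57.6% GC in Dnah1 and 84.0% GC in Igdcc4, beside a median of 52.4% over all windows.

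Under WD, Gldn and Shc2 rose first in N-LKO liver. Gldn was at 0.754, 0 and 0.894 CPM in the 3 WT livers, at 8.75, 9.67 and 11.2 in the N-LKO livers and at 43.4, 25.1 and 75.5 in the tumors. The 3 groups did not overlap, and the pooled ratio was 17.4 (95% counting interval 11.8 to 26.9) for N-LKO over WT liver and 4.76 (4.35 to 5.2) for tumor over N-LKO liver. These intervals cover counting error only. They leave out the spread between animals, so a narrow one does not show that groups differ, and reads copied by PCR are not independent molecules. Shc2 was at 1.37, 0.136 and 2.50 CPM in WT liver, at 15, 16.7 and 17.6 in N-LKO liver and at 19.0, 18.5 and 27.0 in tumors. Its N-LKO livers were 11.8 times (9.18 to 15.5) above WT liver, and its tumors only 1.30 times (1.19 to 1.41) above N-LKO liver. In the fit, which includes the spread between libraries, that step to tumor was 0.39 ± 0.43 (log2, SE). The groups of Shc2 did not overlap either, but the second of the WT livers was far below the other two for both genes. The fitted log2 step from WT to N-LKO liver was 4.12 for Gldn and 3.59 for Shc2, 3.56 and 3.07 without that library, and 4.69 and 4.44 without WT liver replicate 3.

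Scn2a, the channel subunit, was at 0.206, 0.0678 and 0.179 CPM in WT liver, at 1.22, 0.948 and 0.903 in N-LKO liver and at 2.71, 4.13 and 5.93 in tumors. The 3 groups were separate, with a pooled ratio of 6.77 (3.10 to 17.5) for the first step and 4.12 (3.11 to 5.53) for the second. Tbc1d31, the gene of the set with the highest level per kilobase in WT liver, was at 14.1, 10.7 and 12.9 CPM in WT liver, at 28.5, 27.6 and 28.2 in N-LKO liver and at 38.0, 57.1 and 60.1 in tumors. The groups were separate at both steps, 2.23 times (2.03 to 2.45) and 1.85 times (1.74 to 1.96), and its N-LKO livers had an SD of 0.437 CPM. Dpysl3 was at 3.98, 4.27 and 3.34 CPM in WT liver, at 9.0, 7.54 and 8.66 in N-LKO liver and at 10.4, 9.54 and 8.90 in tumors. Its WT livers were below all other samples, while N-LKO liver and tumor overlapped, with a ratio of 1.15 (1.02 to 1.30) between them. The fitted log2 step from N-LKO liver to tumor was 0.20 ± 0.16 (SE) for Dpysl3.

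The other 5 genes rose mainly between N-LKO liver and tumor. Sorcs2, the proneurotrophin receptor, was at 0.206, 0.0678 and 0 CPM in WT liver, at 0.0978, 0.474 and 0.106 in N-LKO liver and at 1.76, 51.9 and 23.1 in tumors. The livers of both genotypes overlapped near the limit of detection, from 0 to 10 counts per library, and all tumors were above them. The tumors themselves spread 29.5 times from lowest to highest, so the fold of 115 (68.5 to 211) over N-LKO liver stands on tumors 2 and 3, and tumor 1 had 35 counts. The fitted log2 step from WT to N-LKO liver was 1.34 with all libraries, 0.21 without N-LKO liver replicate 2, 2.63 without WT liver replicate 1 and 0.73 without WT liver replicate 3, and the step to tumor was 6.76, 5.71 without tumor 2 and 7.88 without N-LKO liver replicate 2. Igdcc4 was at 0.411, 0.407 and 0.775 CPM in WT liver, at 2.25, 0.616 and 1.86 in N-LKO liver and at 17.8, 37.1 and 44.4 in tumors. One N-LKO liver lay within the range of WT liver, and the tumors were 21.3 times (17.3 to 26.5) above N-LKO liver. Rasl10b was at 0.549, 0.881 and 0.715 CPM in WT liver, at 1.22, 0.759 and 0.850 in N-LKO liver and at 8.48, 12.2 and 20.2 in tumors. Its livers overlapped, with a ratio of 1.32 whose interval of 0.845 to 2.09 includes 1, and its tumors were 14.3 times (10.9 to 19.0) above N-LKO liver.

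Dnah1, the dynein heavy chain, was at 0.343, 0.271 and 0.179 CPM in WT liver, at 0.929, 0.474 and 1.17 in N-LKO liver and at 13.6, 8.56 and 11.4 in tumors. The groups did not overlap, with a first step of 3.25 times (1.71 to 6.69) on 12 counts in WT liver and a second of 13.1 times (9.87 to 17.8). Syn2 was at 0, 0.0678 and 0.0596 CPM in WT liver, at 0.147, 0.190 and 0.372 in N-LKO liver and at 2.86, 2.80 and 2.45 in tumors. It had the fewest counts of the set, with 2 counts over the 3 WT livers and 14 over the N-LKO livers, and its tumors were 11.7 times (6.77 to 21.8) above N-LKO liver. The tumors agreed closely, within 1.17 times for Syn2 and 1.59 times for Dnah1.

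**Figure D1:**
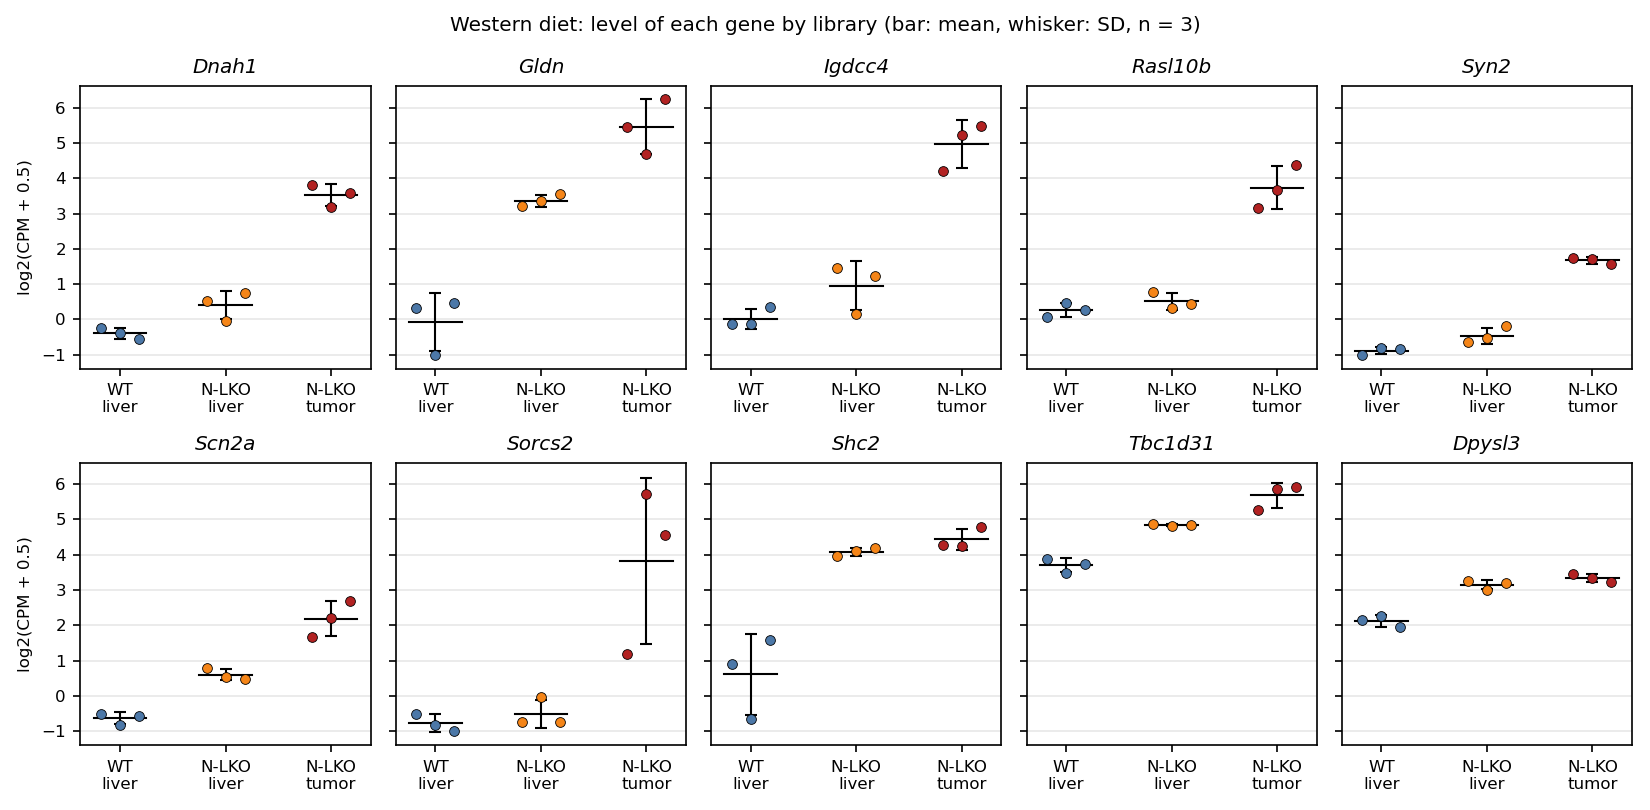
Levels of the 10 genes under WD on a log2(CPM + 0.5) scale, 1 point per library for WT liver, N-LKO liver and N-LKO tumor (n = 3 each), with the mean and SD. Every tumor lies above every WT liver for all 10 genes, and the Sorcs2 tumors run from 1.76 to 51.9 CPM.

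In all, 7 of the 10 genes had every N-LKO liver above every WT liver, where 14.3% of the 17829 genes tested under WD did so. Tumors were above all N-LKO livers for 9 of the 10, beside 11.5% of the genes tested, and above all WT livers for 10 of the 10, beside 17.7%. The set had been chosen for this pattern, so nothing is read from the counts. The median fitted log2 fold change over the 10 genes was 1.60 for N-LKO over WT liver, 2.89 for tumor over N-LKO liver and 5.07 for tumor over WT liver, beside 0.013, 0.015 and 0.041 over all genes tested. In bulk tissue, more cells of a type and more RNA per cell cannot be told apart.

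The share of the log2 rise from WT liver to tumor that was already present in N-LKO liver differed between the genes. It was 90.3% for Shc2, 85.0% for Dpysl3, 64.3% for Gldn, 56.9% for Scn2a and 56.7% for Tbc1d31, the 5 genes over 50%. The remaining 5 were below, at 39.3% for Syn2, 31.2% for Dnah1, 25.8% for Igdcc4, 16.6% for Sorcs2 and 9.37% for Rasl10b. The fitted log2 step from WT to N-LKO liver had a standard error of 2.19 for Sorcs2 and 0.73 for Syn2, so their places in this order are loose. It was 0.17 for Dpysl3. For Tbc1d31 the 2 steps were close, at 1.16 ± 0.18 and 0.88 ± 0.18 (SE). Those of Scn2a were 2.71 ± 0.50 and 2.05 ± 0.35, so the side of 50% is not settled for either gene. By the fitted values alone, the adaptor, the growth cone protein, the nodal pair of gliomedin and Nav1.2 and the satellite protein were over 50%. The vesicle, dynein, fetal liver surface, sorting receptor and GTPase genes were below.

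**Figure D2:**
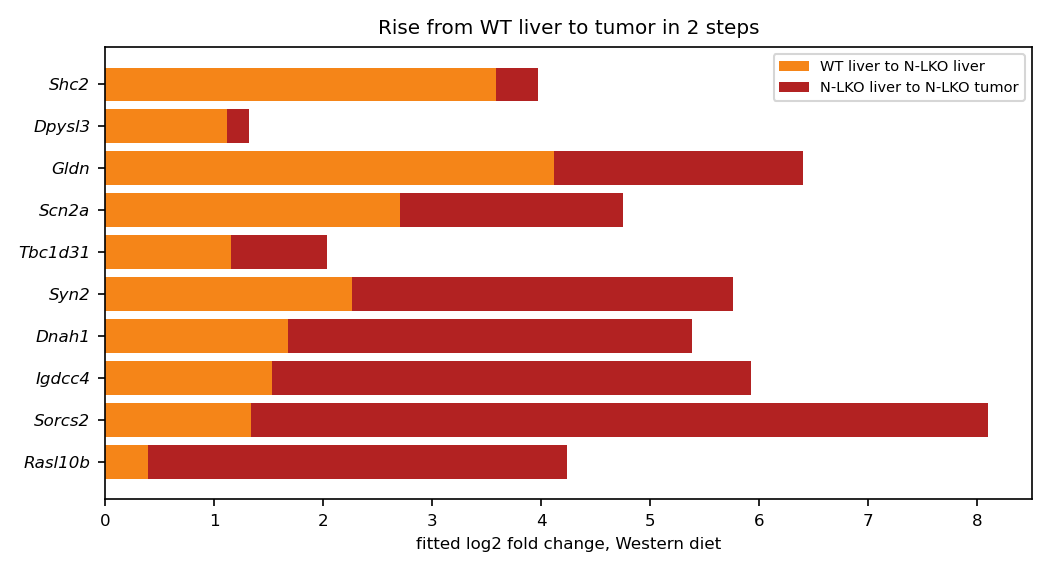
Fitted log2 fold change under WD of each gene, split into the step from WT liver to N-LKO liver and the step from N-LKO liver to tumor. The first step is 3.59 of 3.97 for Shc2 and 0.40 of 4.24 for Rasl10b.

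The 3 tumors were not alike over the set. Tumor 3 was the highest for 6 of the 10 genes and tumor 1 the lowest for 5, among them Sorcs2, Igdcc4, Rasl10b, Scn2a and Tbc1d31, while tumor 1 was the highest for Dnah1, Syn2 and Dpysl3. Expressed per kilobase of merged exons, which allows genes to be compared, the mean tumor level was 10.3 ± 5.47 CPM per kb (SD, n = 3) for Gldn and 8.12 ± 1.89 for Tbc1d31. Shc2 followed at 3.96 ± 0.883, Igdcc4 at 3.49 ± 1.45, Rasl10b at 3.39 ± 1.49, Sorcs2 at 2.91 ± 2.86, Dpysl3 at 1.46 ± 0.117, Dnah1 at 0.859 ± 0.194, Syn2 at 0.384 ± 0.0318 and Scn2a at 0.334 ± 0.127. Neighbours in this order overlapped within 1 SD, except that Tbc1d31 was above Shc2, Dpysl3 above Dnah1 and Dnah1 above Syn2. In WT liver under WD the order was another, led by Tbc1d31 at 1.98 ± 0.273 CPM per kb and Dpysl3 at 0.584 ± 0.0723, with Gldn at 0.118 ± 0.103.

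Under HFD, Gldn was the gene of the set called higher in N-LKO liver by the main edgeR test, and Shc2 and Tbc1d31 also had separate groups. It was at 0.208, 0.0954, 0 and 0.712 CPM in the 4 WT livers and at 3.31, 9.29, 3.26 and 6.63 in the 4 N-LKO livers. The groups did not overlap, and the log2 fold change was 4.40 ± 0.61 (SE; edgeR quasi-likelihood test, adjusted p = 0.00749), where 4.84% of the 13460 genes tested were called in either direction and 2.56% were called higher. Gldn entered that test through its N-LKO livers, since WT liver held 10 counts in all, between 0 and 7 per library. A gene kept by the filter through its high group had to differ, so the value without a filter is given too, an edgeR adjusted p of 0.00366 over 19151 genes, of which 1.62% were called higher. The pooled ratio was 22.5 (12.1 to 47.5). Without WT liver replicate 4, which held 7 of the 10 counts, the log2 fold change was 5.63. The summed level of the Schwann cell markers listed under HFD, 5 of 8, was 2.55 to 3.74 CPM in WT and 2.39 to 4.28 in N-LKO liver, and overlapped.

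Shc2 was at 0.104, 0, 0 and 0 CPM in WT liver under HFD and at 1.32, 1.64, 0.543 and 2.00 in N-LKO liver, and all N-LKO livers were above all WT livers. With 1 count against 66, the pooled ratio was 55.9 with a counting interval of 9.69 to 2240. The gene was removed by the filter on low counts, and with no filter the edgeR adjusted p was 0.00729 at a log2 fold change of 5.25 ± 0.80 (SE). That fold stands on the 1 count in WT liver, and ran from 4.92 without WT liver replicate 2 to 6.93 without WT liver replicate 1, which held it. The counts were few, at most 25 in a library, against 306 to 353 in N-LKO liver under WD.

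Tbc1d31 was at 10.7, 9.26, 4.99 and 7.12 CPM in WT liver under HFD and at 16.0, 14.2, 11.4 and 12.9 in N-LKO liver. The groups did not overlap, yet the log2 fold change of 0.77 ± 0.20 (SE) missed the threshold in edgeR (adjusted p = 0.0528). It passed in DESeq2 (adjusted p = 0.0117), which called 7.43% of all genes, so its call depends on the tool. Dpysl3 was at 1.04, 1.62, 0.999 and 1.12 CPM in WT and at 1.07, 1.07, 0.977 and 2.08 in N-LKO liver, which overlapped. Its log2 difference of 0.13 ± 0.34 (SE) did not pass (edgeR adjusted p = 0.858), and the pooled ratio of 1.10 had an interval of 0.739 to 1.64, where under WD it was 2.18 (1.84 to 2.61). The difference between the diets was not tested.

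The other 5 genes under HFD were too scarce for the filter, with no more than 9 counts in any library. Scn2a had 2 counts in WT and 16 in N-LKO liver, a ratio of 6.77 (1.59 to 60.7), with 2, 0, 0 and 0 counts against 2, 8, 4 and 2. Igdcc4 had 3 and 18 counts, a ratio of 5.08 (1.48 to 26.9), and 2 of its N-LKO livers had 1 count each. Dnah1 had 2 and 9 counts, a ratio of 3.81 (0.789 to 36.2), and Rasl10b had 11 and 23, a ratio of 1.77 (0.829 to 4.02). All 4 overlapped between genotypes, and without a filter none passed in edgeR, with adjusted p of 0.196, 0.267, 0.486 and 0.504 in the order given. Sorcs2 was at 0 to 3 counts per library in both genotypes, so no fold is given.

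Thus 3 of the 9 genes, Gldn, Shc2 and Tbc1d31, had all N-LKO livers above all WT livers under HFD, beside 6.12% of all 19151 genes listed and 7.38% of the genes that passed the filter, which Shc2 did not. The same 3 were separate between genotypes under WD, as were Scn2a, Dpysl3 and Dnah1.

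**Figure D3:**
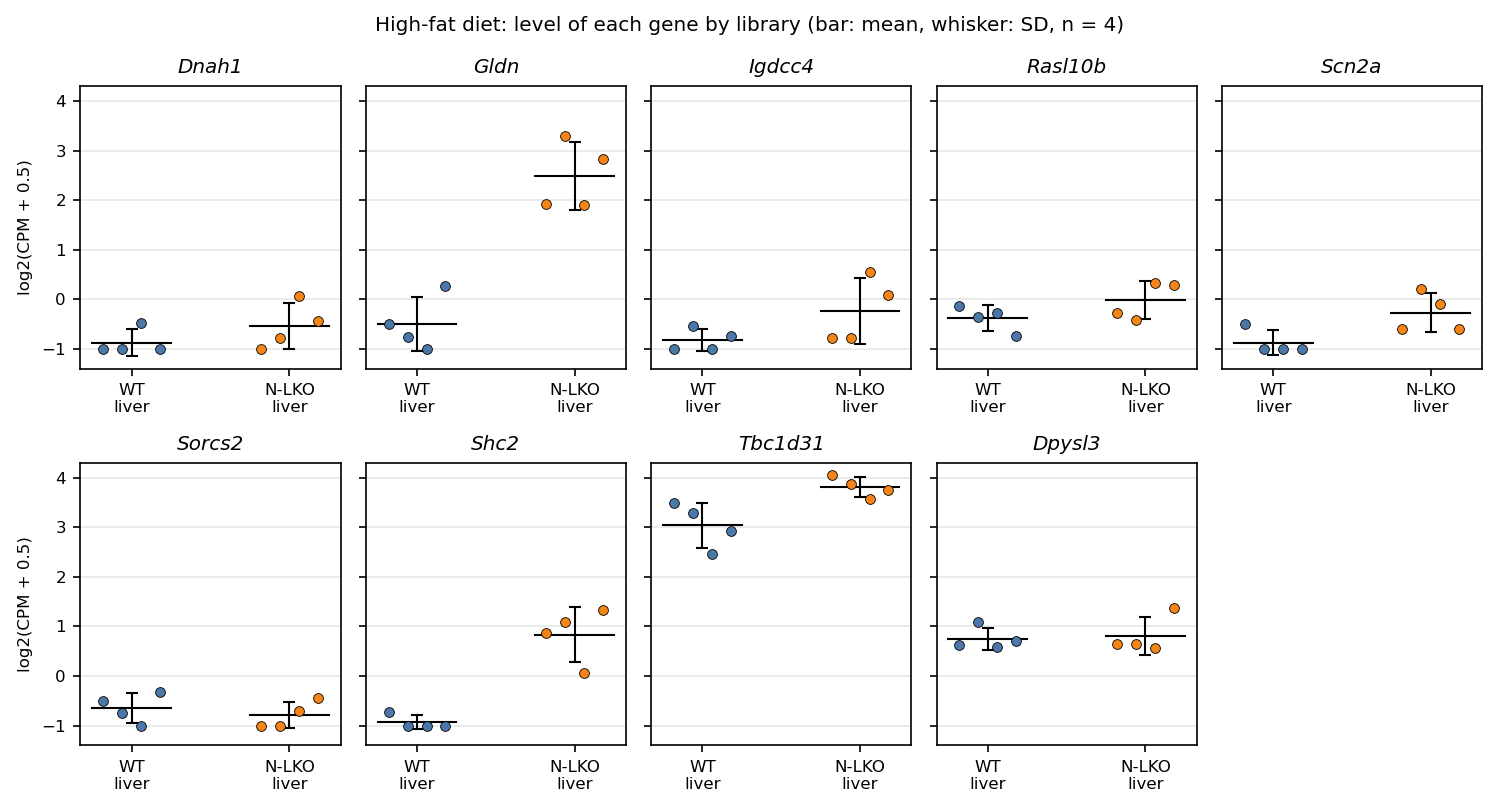
Levels of the 9 genes listed under HFD on a log2(CPM + 0.5) scale, 1 point per library for WT and N-LKO liver (n = 4 each), with the mean and SD; a gene with no count sits at -1. Gldn, Shc2 and Tbc1d31 do not overlap between genotypes.

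**Figure D4:**
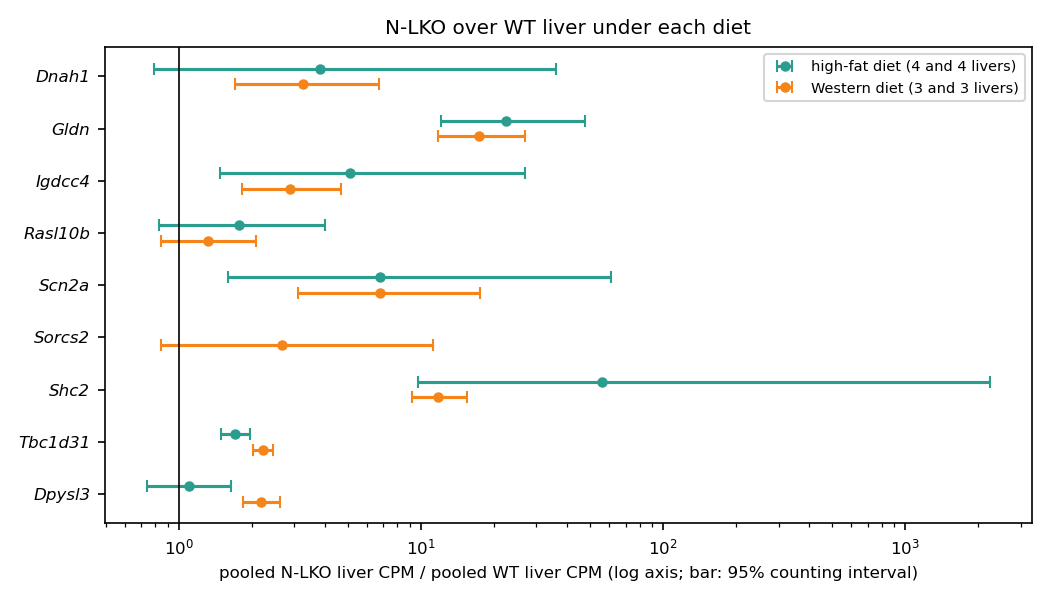
Pooled ratio of N-LKO to WT liver under each diet on a log axis, with 95% counting intervals; the vertical line marks a ratio of 1, and Sorcs2 has no HFD point because both groups were at 3 counts or fewer per library. Gldn stands at 22.5 under HFD and 17.4 under WD, while Dpysl3 stands at 1.10 and 2.18.

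Related genes of each process were read from the same tests. Of 30 other axonemal dynein genes, 7 could be tested under WD, and Dnah7b, another inner-arm heavy chain, was higher in tumor than in N-LKO liver (log2 fold change 1.87 ± 0.33 SE, edgeR adjusted p = 0.0454), where 0.499% of all genes were called in either direction, 0.437% higher and 0.0617% lower. Its close paralogs share sequence with it, so its reads are uncertain. Against WT liver, where 8.08% of genes were called higher and 6.80% lower, 3 of the 7 were higher in tumor and 1 lower: Dnah7b by 2.85 ± 0.36, Dnal1, a dynein light chain, by 1.21 ± 0.27 and Dnah11 by 1.95 ± 0.54 (adjusted p = 0.00563, 0.0197 and 0.0381). Ccdc151, a docking factor of outer arms, had a log2 fold change of -1.57 ± 0.40 (adjusted p = 0.0287). Only 7 of the 25 dynein genes listed under WD passed the filter, which a scarce gene can pass through its tumors alone. Nothing is therefore read from the share of dynein genes called. None of 14 genes of centriolar satellites and the primary cilium was called in any of the 4 contrasts by edgeR or DESeq2, and 2 of them had an unadjusted p under 0.05 for tumor over WT liver, as did 32.5% of all genes. Cep72, a satellite protein, had the lowest p there, at 1.01 ± 0.35 (adjusted p = 0.0740).

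Among 23 genes of sodium channels and nodes, 8 were tested under WD, and 3 were higher and 1 lower in tumor than in WT liver, where 14.9% of all genes were called in either direction. Scn8a, which encodes the nodal channel Nav1.6, was at 3.04 ± 0.80 (adjusted p = 0.0325) and Scn7a, an atypical sodium channel, at 1.76 ± 0.46 (adjusted p = 0.0320). Ank3, the ankyrin that anchors channels in the membrane, was lower at -0.81 ± 0.21 (adjusted p = 0.0329). Here too only 8 of the 18 genes listed passed the filter, and scarce genes can pass it through their tumors alone. Nothing is read from the share called. None of the 8 was called by edgeR in the other WD contrasts, with 1 and 4 at an unadjusted p under 0.05, beside 12.4% and 18.3% of all genes. DESeq2 called 1 of them for N-LKO over WT liver, Scn7a (adjusted p = 0.00125), and 2 higher and 1 lower for tumor over N-LKO liver, contrasts in which it called 0.561% and 5.73% of all genes.

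Of 12 other genes of synaptic vesicles tested under WD, edgeR called none higher, DESeq2 called 1 higher, and both called 1 lower in tumor than in WT liver, and their median log2 fold change was -0.24, beside 0.041 for all genes, with 5 of the 12 at an unadjusted p under 0.05, beside 32.5% of all genes. DESeq2 called 20.4% of all genes in that contrast. Bsn, a scaffold of the active zone, was at 3.08 ± 0.93 (edgeR adjusted p = 0.0501, DESeq2 adjusted p = 0.0111), and the synapsin gene Syn3 at 0.79 ± 0.32 (edgeR adjusted p = 0.120). Another scaffold gene, Pclo, was lower in N-LKO liver under HFD (-1.73 ± 0.44, adjusted p = 0.0484), where 2.29% of genes were called lower. Of 9 VPS10 receptor and neurotrophin genes tested, the sorting receptor Sorl1 was higher in tumor than in WT liver (1.42 ± 0.26, adjusted p = 0.0119), while the neurotrophin receptor Ngfr was lower (-1.20 ± 0.28, adjusted p = 0.0225).

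Of 19 axon guidance genes tested under WD, Plxna3, a semaphorin receptor, was higher in tumor than in WT liver (1.93 ± 0.42, adjusted p = 0.0192), and the netrin gene Ntn1 was lower than in WT liver (-0.86 ± 0.16, adjusted p = 0.0131) and than in N-LKO liver (-1.04 ± 0.16, adjusted p = 0.0308). Under HFD, the Slit receptor Robo1 was higher in N-LKO liver (0.84 ± 0.14, adjusted p = 0.0126) and Nrp1, a semaphorin and VEGF coreceptor, lower (-0.69 ± 0.17, adjusted p = 0.0398), of 13 tested. Of 11 Shc adaptor and Ras-like GTPase genes, Gem, a GTPase that inhibits calcium channels, was lower in tumor than in WT liver (-2.09 ± 0.57, adjusted p = 0.0374) and none was called higher by edgeR, 1 by DESeq2, with 4 of the 11 at an unadjusted p under 0.05, shares near those of all genes, 6.80% called lower and 32.5% at such a p. These lists do not share a direction, and their adjusted p-values are those of the edgeR tests over all genes.

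Markers of the cells that could carry such transcripts were read beside the set. Of 10 neuron markers, 5 were in the WD table, and their summed level was 2.03 to 4.41 CPM in WT liver, 4.08 to 5.05 in N-LKO liver and 3.41 to 4.44 in tumor, where Nefl, Nefm, Elavl4, Stmn2 and Snap25 were not listed. The 8 neuroendocrine markers were not listed in either table. Of 8 Schwann cell markers, 6 were listed, at 3.91 to 6.02, 5.26 to 5.97 and 8.21 to 25.2 CPM in the same order, with Sox10 and Foxd3 not listed. Within that list Cdh19 ran from 0.151 to 19.9 CPM in tumors.

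Of 18 multiciliated cell markers, 13 were listed, and their sum was 2.17 to 2.68 CPM in WT liver, 2.99 to 4.62 in N-LKO liver and 4.66 to 11.2 in tumor. The tumor sum came largely from Cfap44 at 1.55 to 6.71 and Drc1 at 0.976 to 3.12 CPM, while Foxj1, the regulator of motile cilia, was at 0.0444 to 1.10 in tumor and 0.372 to 0.978 in N-LKO liver. All 9 cholangiocyte markers were listed, with sums of 29.3 to 84.8, 132 to 167 and 221 to 549 CPM, of which Spp1 made up the most, and under HFD 8 were listed at 33.2 to 50.1 CPM in WT and 70.1 to 119 in N-LKO liver. Krt19 was at 0.052 to 1.2 CPM in tumors and 0.538 to 1.06 in N-LKO liver. The 5 proliferation markers summed to 5.83 to 20.2, 23.9 to 39.3 and 39.9 to 89.4 CPM under WD. The multiciliated, cholangiocyte and proliferation sums thus were higher in each of the 3 WD groups in turn, without overlap, and the Schwann cell sum was higher in tumors; their part in its rise was not tested.

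**Figure D5:**
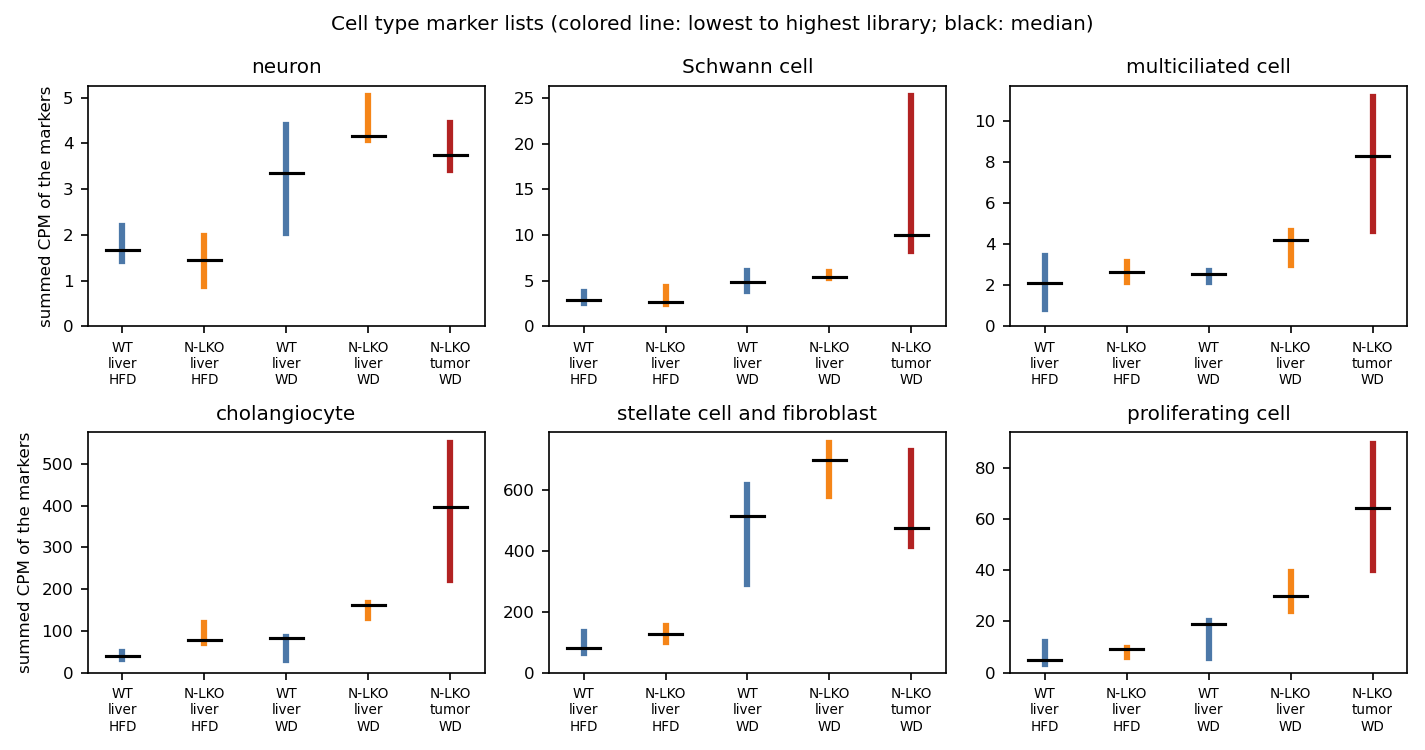
Summed CPM of 6 marker lists in the 5 groups, with a colored line from the lowest to the highest library and a black bar at the median (n = 4 under HFD, n = 3 under WD), on axes of their own. Neuron markers stay between 2.03 and 5.05 CPM under WD, and cholangiocyte markers rise to between 221 and 549 CPM in tumors.

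The other list sums differed less or otherwise. Stellate cell and fibroblast markers were at 292 to 619 CPM in WT liver, 581 to 756 in N-LKO liver and 417 to 730 in tumor under WD. Endothelial markers were at 262 to 300, 247 to 289 and 291 to 349 CPM, and macrophage markers at 232 to 313, 204 to 248 and 89.9 to 219. Lymphocyte markers were at 3.25 to 5.0, 4.50 to 8.07 and 8.23 to 14.1 CPM, so that they too were highest in tumors, and their part was not tested.

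Some reads could belong to a neighbouring gene, as the use of strand in counting was not given. Timp4, a metalloproteinase inhibitor gene, lies inside Syn2 on the opposite strand and shares 90 exon bases with it. Timp4 was at 1.51, 53.4 and 77.9 CPM in tumors 1, 2 and 3, where Syn2 was at 2.86, 2.80 and 2.45. Over the groups, Timp4 had 1 count in WT liver, 3 in N-LKO liver and 2729 in tumor, and Syn2 had 2, 14 and 167. The part of Timp4 in the Syn2 counts was not tested. Dnah1 shares 551 exon bases with Gm35823, which had at most 8 counts in a WD library, and Shc2 shares 63 with Gm47163, which had at most 151.

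The genes whose pattern was most like the mean profile of the set over the 9 WD libraries were Calml4, a calmodulin-like protein (Pearson's r = 0.993), Arpc2, a subunit of the Arp2/3 actin complex (0.979), Lgalsl (0.975), Krit1 (0.973) and Ppip5k2 (0.970). Of 12702 candidates with a mean of at least 1 CPM, 275 had an r over 0.9. The libraries fall into 3 groups, which these correlations share, so they are a description. Calml4 averaged 0.844 CPM in WT liver, 3.08 in N-LKO liver and 13.5 in tumor under WD, but 0.465 and 0.574 in WT and N-LKO liver under HFD. Arpc2 moved by far less, from 79.9 through 87.0 to 103 CPM.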

How the data were processed

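RNA-seq of 17 mouse samples was read from the deposited tables of estimated counts per gene, 1 for HFD and 1 for WD, which the authors made without scaling or pooling; 0 columns were left unassigned. The study's methods name ribosomal RNA removal and TopHat2, whereas the submitters' processing notes name STAR, Partek and mm9. Versions are not given in the sources used here. Gene starts matched GENCODE M21 (GRCm38) for 99.5% of matched HFD and 99.4% of matched WD genes, so positions are from that annotation. Some values were not whole, since reads shared between features were divided, so paralogs, overlapping and antisense genes are uncertain. Counting error and replicate number limit the precision of low counts.

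Groups and replicate numbers came from the sample titles. Rounded estimated counts were filtered by filterByExpr, scaled by TMM and compared by the quasi-likelihood test of edgeR 4.0.16 (R 4.3.3), at a Benjamini-Hochberg adjusted p under 0.05. HFD livers were fitted alone (13460 genes) and the 3 WD groups together (17829 genes). The standard error is the log2 fold change over the square root of F. Counts were pooled over a group for ratios, with exact 95% intervals from the binomial distribution of the counts between both groups (scipy 1.17.1). The spread between animals is not in these intervals. Alternatives were DESeq2 1.42.0, other scalings and filters, a replicate block, a length and GC offset, a fit of 2 groups and leaving out each library. Scripts were tested on simulated data.

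The 10 genes and all lists were chosen with earlier results of these data known. Named from the other lists were, for each contrast, up to 2 genes each way with the lowest p past the threshold, or otherwise the gene with the lowest p, some of which are not reported here; Scn8a and Dnah11 were named to complete their counts, and Bsn and Syn3 after their values were seen. Likeness is the Pearson correlation of log2(CPM + 0.5) with the mean standardised profile of the 10 genes. Syn2 was not analysed under HFD.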

Additional observations from a re-analysis of the deposited data

Results flagged for a closer look

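Of 18 groups of 4 HFD libraries, 1 for each of 9 genes and both genotypes, 4 held a library set apart from the others by Dixon's ratio, over its critical value of 0.829; chance sets apart about 1 in 20 groups of measured values, a rate that does not apply to the 3 groups below with counts in a single library, whose ratio is 1 by construction. In WT liver, Dnah1 reached 0.222 CPM, Scn2a 0.208 CPM and Shc2 0.104 CPM in the only library with any count, which was 1 or 2 counts. Dpysl3 reached 2.08 CPM in N-LKO liver replicate 4, where the other 3 N-LKO livers were between 0.977 and 1.07 CPM.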

How the results depend on the processing

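All 507 member values under WD alternatives kept their sign, and 17 of them moved by more than the spread between replicates. Under HFD, the log2 fold change of Gldn ran from 4.04 to 5.63, and that of Dpysl3 from 0.31 without WT liver replicate 2 to -0.20 without N-LKO liver replicate 4 (edgeR adjusted p = 0.777). Of the members, 1 was called under HFD, and 2 with upper-quartile scaling, with no filter (of 9 tested), in DESeq2 or with the replicate block. Leaving out 1 library gave 1 to 3. Tbc1d31 was the second with upper-quartile scaling, DESeq2 and the block (adjusted p = 0.0492, 0.0117 and 0.0311) and passed without WT liver replicate 1 (0.0300), while Shc2 was the second with no filter. Shc2 was tested in 5 of the 8 leave-one-out fits, where it passed the filter through its N-LKO livers, so nothing is read from its calls there.

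Over all genes, HFD calls were 652, and 1000 in DESeq2, 246 with the length and GC offset (the fold change correlated with transcript length across genes, Spearman's rho = -0.354) and 179 to 597 with 1 library left out, the lowest without WT liver replicate 2. Calls of N-LKO over WT liver under WD were 0 in edgeR, with 2212 genes at an unadjusted p under 0.05, 100 in DESeq2, 6 in a fit of the 2 groups and 0 to 1 with 1 library left out. Tumor against N-LKO liver gave 89 calls, 58 at a mean of at least 1 CPM, 1021 in DESeq2, 29 in a fit of the 2 groups, 2193 without tumor 1 and 3 without N-LKO liver replicate 2, the highest and lowest. Tumor against WT liver gave 2653, 705 in a fit of the 2 groups, 569 without WT liver replicate 2 and 3819 without tumor 1. Related genes of the pathways were called 20 times over the 4 contrasts, and 33 times in DESeq2. The causes were not tested.

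Deviations of same-numbered libraries correlated at -0.0759 to 0.107 under HFD (1 of 4 pairs over 0.1) and -0.124 to 0.101 under WD (1 of 9). Differently numbered WD libraries of unlike groups ran from -0.133 to 0.148. In groups this small, such values show no pairing but cannot tell whether a tumor and a liver came from 1 mouse. With the replicate block, calls were 494 under HFD, 0 for N-LKO over WT liver under WD, 36 for tumor over N-LKO liver and 1860 for tumor over WT liver. Depth limits the scarce genes: Syn2, Sorcs2, Scn2a and Dnah1 had 12 counts or fewer over the WT livers under WD.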
